A study of Mus musculus with 5 samples.

Results

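The mouse miRNAs mmu-miR-431, mmu-miR-433, mmu-miR-127, mmu-miR-434-5p, mmu-miR-434-3p and mmu-miR-136, written without their species prefix from here on, were taken by name from the deposited tag annotations as the miRNAs that are antisense to the imprinted gene Rtl1. They are 6 of the 593 miRNA names that had a count in any library. They come from 5 hairpins, and miR-434-5p and miR-434-3p are the 2 arms of 1 hairpin, so they share a precursor. All 6 had counts in each of the 4 libraries of fresh cells, and 5 of 6 had counts in the library of cultured cells.

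Small RNA came from testis cells of C57BL/6 mice, with no transgene or deletion named. Fresh cells had been sorted magnetically for Thy1.2, which is found on the surface of spermatogonial stem cells, the long-lived cells that sustain sperm production. There were 2 libraries of the Thy1+ fraction, enriched for these stem cells, 2 of the Thy1- fraction, called enriched for somatic cells in the titles although their cell type label names spermatogonial stem cells, and 1 of a germ cell culture derived from the Thy1+ fraction and kept for about 10 passages. The culture is 1 library. The labels do not say whether the fresh replicates stem from different mice, so the spread that the p-values rest on may be technical. Culture conditions such as feeder cells are not given in the labels used here.

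Rtl1 is a gene derived from a retrotransposon that is known for its role in the placenta and in muscle. It is expressed from the paternal chromosome, while the miRNAs on the opposite strand are expressed from the maternal chromosome, as are the noncoding RNA Meg3 and the other miRNAs of this imprinted region. Because these miRNAs are transcribed across the Rtl1 coding sequence, they pair with its mRNA along their whole length, and miR-127 and miR-136 are known to guide its cleavage.

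In GRCm38 the 5 hairpins lie on the plus strand of chromosome 12 and each lies opposite the Rtl1 coding sequence, which is on the minus strand (chr12:109590172-109595403 in the GENCODE M21 annotation). The mature positions are chr12:109590459-109590479 for miR-431, chr12:109591781-109591802 for miR-433, chr12:109592888-109592909 for miR-127, chr12:109594528-109594549 for miR-434-5p, chr12:109594565-109594586 for miR-434-3p and chr12:109595331-109595352 for miR-136. All 6 matched a RefSeq entry, and their mature sequences (RefSeq, GRCm38.p6) are shown 5′ to 3′ because the tags below are read against them. Capitals mark the seed, bases 2 to 8, which sets target choice. No seed was shared between members.
miR-431: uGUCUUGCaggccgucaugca
miR-433: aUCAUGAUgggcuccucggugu
miR-127: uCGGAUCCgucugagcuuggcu
miR-434-5p: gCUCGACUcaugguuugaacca
miR-434-3p: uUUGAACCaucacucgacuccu
miR-136: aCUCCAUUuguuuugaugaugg
The reverse complement of each was found without a mismatch in the Rtl1 transcript of 6358 bases. For miR-127, the most abundant member, this Rtl1 site is at bases 2642 to 2663 of that transcript and is shown to make the full-length pairing visible.
Rtl1 site of miR-127: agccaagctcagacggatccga

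Levels are given as counts per 1000000 miRNA counts of a library (CPM), which do not depend on length for miRNAs of nearly equal size. The libraries held between 937002 and 5110007 miRNA counts, and 3 counts correspond to 0.587 CPM in the culture. The 6 miRNAs together held 0.617% and 1.37% of the Thy1+ counts, 0.773% and 0.847% in Thy1- and 0.0154% in the culture (95% Clopper-Pearson interval 0.0143% to 0.0165%, counting error only). The Thy1+ libraries lay on either side of both Thy1- libraries, while the culture lay far below all 4. The means were 0.992% ± 0.531 in Thy1+ and 0.810% ± 0.0528 in Thy1- (SD, n = 2 each). A two-sided exact permutation test of the fresh fractions gave p = 1.0, and 0.333 is the smallest p that 2 against 2 libraries allow.

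Checked against miRNAs known from particular cells, the libraries held mixtures. The summed level of 6 male germ cell miRNAs was 99310 to 184900 CPM in Thy1+, 17110 to 62410 in Thy1- and 228000 in the culture. The culture sum was mostly miR-34c, which alone had 999172 of 5110007 culture counts. The others, miR-449a, miR-741, miR-871, miR-880 and miR-881, were each lower in CPM in the culture than in both Thy1+ libraries. The summed level of 5 white blood cell miRNAs was 14900 to 26540 CPM in Thy1+, 1346 to 2017 in Thy1- and 937 in the culture. That of 5 mesenchymal and smooth muscle miRNAs was 23010 to 29910, 22760 to 39630 and 52880 CPM, and that of the 2 arms of gonadal miR-202 was 1138 to 2205, 3712 to 18580 and 173 CPM. All listed markers had counts in all 5 libraries, except muscle miR-133a, which had none in the culture. Lists of 6 pluripotent stem cell, 3 red blood cell, 2 endothelial, 2 neuronal and 3 striated muscle miRNAs stood at 737, 12.5, 562, 117 and 1156 CPM in the culture, against fresh ranges of 603 to 13370, 179 to 1475, 964 to 2605, 279 to 1020 and 310 to 1676 CPM. These sums can hide opposite directions. The white blood cell sum was mostly miR-142-3p, while miR-155 stood higher in CPM in the culture than in both Thy1- libraries. In CPM, the culture was above every fresh library for muscle miR-206 and below every one for miR-1. In the mesenchymal list, miR-143, miR-199a-3p and miR-214 were highest in the culture and miR-145 was lowest there. miR-199a-5p lay within the fresh range. The part of cell composition in the results below was not tested. In such bulk libraries, fewer cells of a type and less RNA per cell cannot be told apart.

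miR-127, known in human cancer cells to repress BCL6, was the most abundant of the 6 in every library. It stood at 3388 and 8664 CPM in Thy1+, 4717 and 5264 CPM in Thy1- and 79.1 CPM in the culture. Its 2 Thy1+ values enclosed both Thy1- values, and the culture value was far below all of them. miR-434-3p stood at 1138 and 2498 CPM in Thy1+, 1343 and 863 CPM in Thy1- and 13.9 CPM in the culture. miR-434-5p, the other arm of that hairpin, stood at 1036 and 1312 CPM in Thy1+, 783 and 1338 CPM in Thy1- and 14.1 CPM in the culture. For both arms the fresh fractions overlapped and the culture lay below them. miR-136 stood at 549 and 1152 CPM in Thy1+, 855 and 943 CPM in Thy1- and 46.2 CPM in the culture, the highest culture level after that of miR-127.

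miR-433 and miR-431 were much scarcer. miR-433 stood at 50.2 and 47.5 CPM in Thy1+, 20.8 and 60.5 CPM in Thy1- and 0.783 CPM in the culture, which is 4 counts (95% interval 0.213 to 2.0 CPM). miR-431, which is known from muscle stem cells, stood at 4.27 and 8.44 CPM in Thy1+ (4 and 8 counts) and 7.46 and 4.28 CPM in Thy1- (19 and 21 counts), with no count in the culture. With 3 culture counts taken as the limit, its culture level was at least 10.8-fold below the Thy1+ mean and 9.99-fold below the Thy1- mean. This leaves out the counting error of the fresh means, and the 95% interval of the culture level reached higher, to 0.722 CPM. In all 4 fresh libraries miR-127 came first, miR-433 second to last and miR-431 last. The steps below miR-127 and above miR-433 were larger than the spread between replicates. The step from miR-433 to miR-431 was not in Thy1- replicate 1, where they stood at 20.8 and 7.46 CPM. The replicate ratio of miR-433 in Thy1- was 2.91. The order of miR-434-3p, miR-434-5p and miR-136 between them changed from library to library, so these neighbours did not differ beyond that spread.

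**Figure D1:**
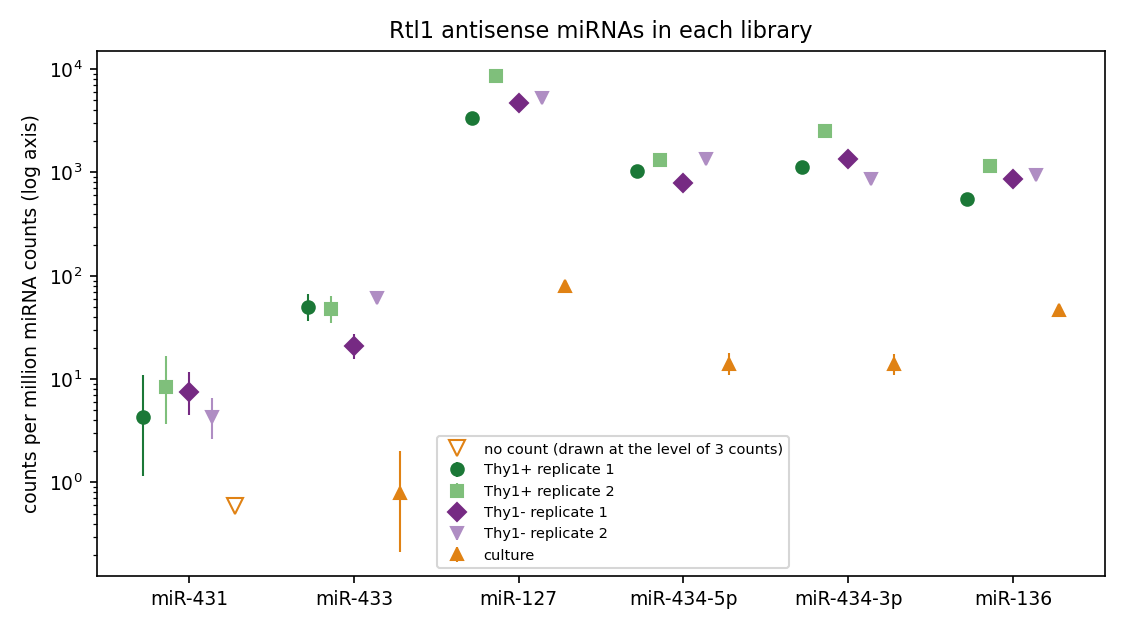
Level of each Rtl1 antisense miRNA in CPM (log axis) in the 2 Thy1+, 2 Thy1- and 1 culture libraries, in the order of the hairpins along chromosome 12, with 95% Clopper-Pearson bars. Fresh libraries overlap for all 6, and the culture is lowest for all 6, with miR-431 at no count drawn at the level of 3 counts.

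Within the 6, miR-127 made up the largest part in every library. It held 55.0% and 63.3% of their summed counts in Thy1+ and 61.0% and 62.1% in Thy1-. miR-136 held 8.90% and 8.42% in Thy1+ and 11.1% in each Thy1- library. The other members' parts varied more, and between replicates too. miR-434-5p held 16.8% and 9.59% in Thy1+ and 10.1% and 15.8% in Thy1-, and miR-434-3p held 18.5% and 18.3% in Thy1+ and 17.4% and 10.2% in Thy1-. miR-433 held 0.814% and 0.347% in Thy1+ and 0.269% and 0.714% in Thy1-. In the culture miR-127 held 51.3% (47.8% to 54.9%) and miR-136 30.0% (26.8% to 33.3%), and this larger miR-136 share came with a single tag that is described below. These shares do not depend on how libraries are scaled.

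The first comparison asked whether the stem cell enriched Thy1+ fraction differed from the Thy1- fraction. None of the 6 miRNAs passed the test (0 of 6, edgeR quasi-likelihood test with Benjamini-Hochberg adjustment over 425 miRNAs, threshold 0.05, two-sided), while 28.2% of all miRNAs tested did, 20.5% higher and 7.76% lower in Thy1+. At an unadjusted p under 0.05 the count was also 0, and it was 0 with DESeq2 and with limma-voom. The log2 fold changes ran from -0.69 for miR-136 (SE 0.51, adjusted p = 0.338) to 0.14 for miR-434-3p (SE 0.50, adjusted p = 0.858), with miR-127 at -0.35 (SE 0.52, adjusted p = 0.639). The values of miR-431, miR-433 and miR-434-5p were -0.41, -0.36 and -0.46 (SE 0.61, 0.66 and 0.52). In CPM, the Thy1+ and Thy1- libraries overlapped for each of the 6, while they did not overlap for 63.8% of all miRNAs tested.

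The spread between replicates was wide for some members. The CPM of miR-127 in Thy1+ replicate 2 was 2.56 times that of replicate 1, and for miR-434-3p and miR-136 this ratio was 2.20 and 2.10. In Thy1- the ratio was 2.91 for miR-433 and 0.643 for miR-434-3p. In this comparison the SEs of the 6 log2 fold changes ran from 0.50 to 0.66. Total scaling in place of TMM, edgeR's trimmed scaling, moved the median of all miRNAs by 0.56 on the log2 scale in this comparison, and it turned miR-431, miR-433, miR-127 and miR-434-5p from below 0 to above 0 (0.14, 0.26, 0.27 and 0.15) without bringing any past the test. The calls over all miRNAs were 87 higher and 33 lower, and 110 and 11 under total scaling.

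The next comparison set the culture against the fresh Thy1+ fraction from which such cultures were derived. miR-127, miR-434-5p, miR-434-3p and miR-136 fell in the culture, whereas 22.3% of the 470 miRNAs tested were called, 13.4% lower and 8.94% higher. miR-433, with 4 culture counts, and miR-431, with none, entered the test through their fresh libraries alone, so their calls add nothing to these falls. The folds in CPM that follow have no TMM scaling, while the log2 values beside them do, so the CPM folds are the larger. The median log2 fold change over all miRNAs tested was -0.09 with TMM and -1.73 with total scaling. miR-434-3p was 131-fold lower in CPM (log2 -5.33, SE 0.88, adjusted p = 0.0105), from 1818 ± 962 CPM in Thy1+ (SD, n = 2) to 13.9 CPM. miR-434-5p was 83.3-fold lower (log2 -4.71, SE 0.88), miR-127 76.2-fold lower (log2 -4.54, SE 0.84) and miR-433 62.4-fold lower (log2 -4.27, SE 1.08, adjusted p = 0.0280). miR-136 was 18.4-fold lower (log2 -2.50, SE 0.76, adjusted p = 0.0440), the smallest of these 5 falls. For miR-431, at least 10.8-fold lower by the limit of 3 culture counts, the adjusted p was 0.0451. It missed the threshold under RLE scaling (0.0517) and with DESeq2 (0.0753).

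The median log2 fold change of the 6 was -4.63, or -4.41 with miR-431 at its bound, beside -0.09 over all miRNAs tested. The culture lay below both Thy1+ libraries for 6 of 6 members and for 79.6% of all miRNAs in CPM, so the CPM order alone says little about the members. Total scaling moved the median of all miRNAs by -1.65 on the log2 scale, with 6 of 6 members still lower. It changed the calls over all miRNAs from 42 higher and 63 lower to 9 and 164. The calls rested on the number of Thy1+ libraries: without replicate 1 of Thy1+ none of the 6 passed with edgeR (adjusted p from 0.0531 to 0.108) and without replicate 2 none did (0.124 to 0.168). In both fits 0 of all miRNAs passed, 6 of 6 members had an unadjusted p under 0.05, and the members' values stayed between -6.86 and -2.37. Without Thy1- replicate 1, which shares in the estimate of the spread, 4 of 6 passed.

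Against the Thy1- fraction the picture was alike, with the same culture library on the other side. miR-127, miR-434-5p, miR-434-3p and miR-136 again fell in the culture, beside 16.8% of 470 miRNAs, with 18.1% higher and 34.9% called in all. The log2 fold changes were -5.24 for miR-434-3p (SE 0.88), -5.23 for miR-434-5p (SE 0.91), -4.95 for miR-127 (SE 0.86), -4.69 for miR-433 (SE 1.09) and -3.25 for miR-136 (SE 0.79). Adjusted p of these 5 ran from 0.00439 for miR-434-3p to 0.0154 for miR-136, and it was 0.0219 for miR-431. Again miR-433 and miR-431 entered through the fresh libraries alone. In CPM, again without TMM scaling, miR-127 was 63.1-fold lower than the Thy1- mean of 4991 ± 387 CPM (SD, n = 2). miR-136 was 19.5-fold lower than 899 ± 62.5 CPM. The median of the 6 was -5.09, or -4.82 with miR-431 at its bound, beside -0.15 for all miRNAs, or -0.11 with names lacking culture counts at their bound. Total scaling moved the median of all miRNAs by -1.04 and the calls from 85 higher and 79 lower to 34 and 121. Without Thy1+ replicate 2, 3 of 6 passed, and in a fit of the Thy1- and culture libraries alone 0 of 6 did with edgeR (adjusted p from 0.0513 to 0.0936, unadjusted p under 0.05 for 6 of 6). The culture was below all 4 fresh libraries for each member and for 55.7% of the miRNAs.

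**Figure D2:**
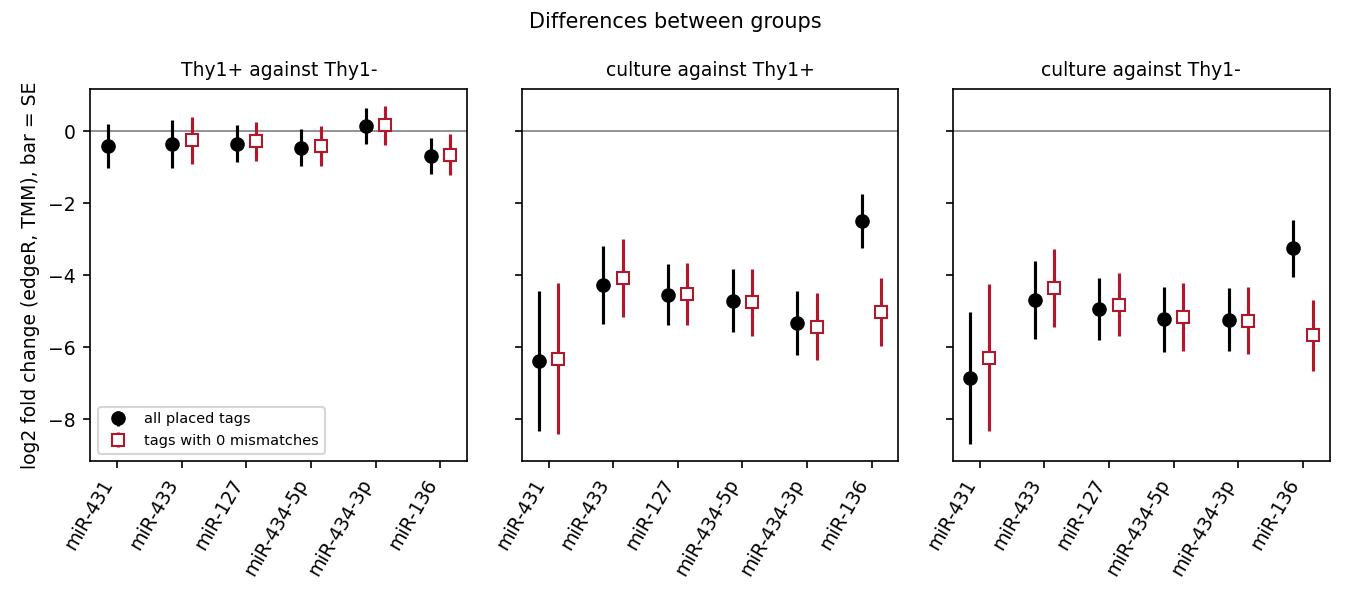
Log2 fold change (edgeR, TMM) of each miRNA in the 3 comparisons with its SE, from all placed tags (filled) and from tags with 0 mismatches (open). Values lie near 0 between the fresh fractions and between -6.85 and -2.50 for the culture with all tags, and miR-136 moves down with perfect tags; miR-431 has no culture count, so its size depends on the fit, and it was not tested between the fresh fractions with perfect tags.

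The smaller fall of miR-136 rested on a single tag. A tag of 15 bases, placed at bases 8 to 22 of miR-136 with 2 mismatches, is shown with its mismatched bases in capitals beside the full-length tag of the same miRNA.
15-base tag: AtgttGtgatgatgg
full-length tag: actccatttgttttgatgatgg
The 15-base tag had 36 and 76 counts in Thy1+, 181 and 274 in Thy1- and 193 in the culture. This was 7.0% and 6.96% of the miR-136 counts in Thy1+, 8.31% and 5.92% in Thy1- and 81.8% in the culture (95% interval 76.3% to 86.5%). Its level in CPM, at 38.4 and 80.2 in Thy1+, 71.0 and 55.8 in Thy1- and 37.8 in the culture, was just below the fresh range there. All other miR-136 tags stood at 510 and 1072 CPM in Thy1+, 784 and 888 CPM in Thy1- and 8.41 CPM in the culture, which is 43 counts.

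In CPM, without TMM scaling, miR-136 without the tag was 94.0-fold lower in the culture than the Thy1+ mean. It was 99.3-fold lower than the Thy1- mean. With the tag these values were 18.4-fold and 19.5-fold. With perfect tags the log2 fold changes of miR-136 were -5.02 (SE 0.95, adjusted p = 0.00534) against Thy1+ and -5.67 (SE 0.98, adjusted p = 0.00156) against Thy1-. Tags of at least 18 bases, a limit chosen after the tag had been seen, gave -5.03 and -5.69. The same limit left miR-127 at -4.59 and -4.91. With perfect tags miR-136 held 7.18% of the counts of the 6 miRNAs in the culture, against 8.66% to 11.6% in the fresh libraries, and miR-127 held 67.3% against 52.8% to 61.7%. In the GENCODE M21 transcripts, the 15 bases occur without a mismatch in 2 transcripts, at bases 3 to 17 of the small nucleolar RNA Gm24357 (74 bases, chr9:15315522-15315595, plus strand) and in a retained-intron transcript of Taf1d, which lies at the same place. The source of the tag was not tested.

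**Figure D3:**
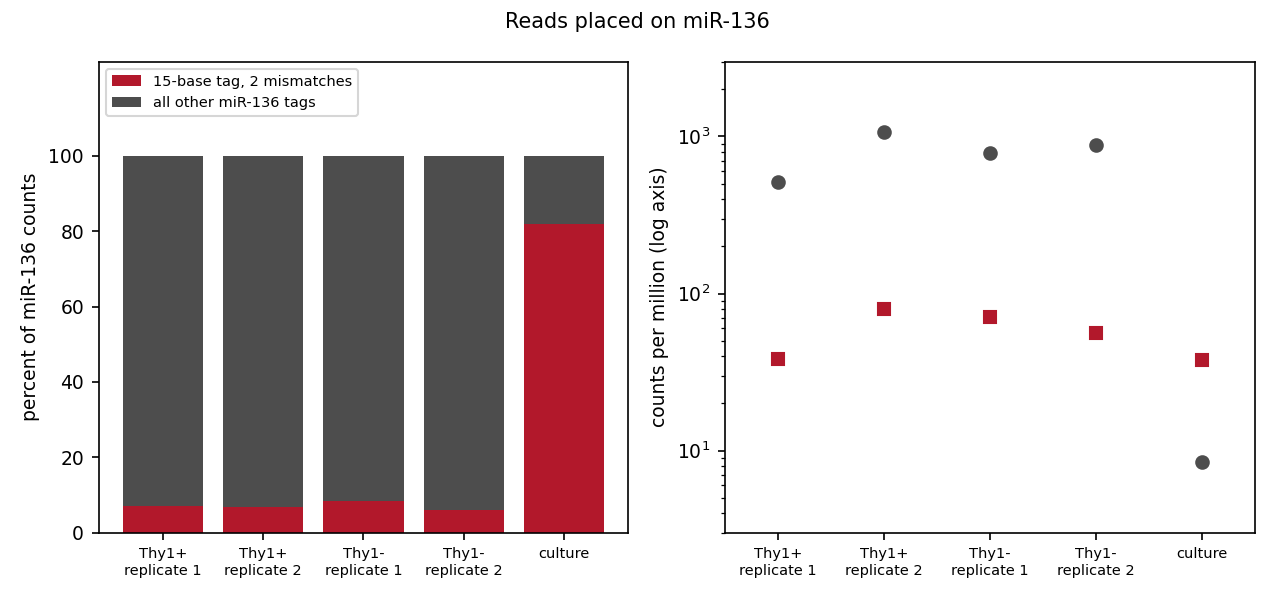
Reads placed on miR-136 in each library: left, the percent of miR-136 counts in the 15-base tag with 2 mismatches and in all other tags; right, the level of both in CPM (log axis). The tag is 81.8% of the culture counts, and its level of 37.8 CPM there is near that of the fresh libraries, while the other tags drop to 8.41 CPM.

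The balance of the arms was read from the partner strands, which the annotation marks with an asterisk. The 3p arm held 95.7% and 96.7% of the miR-127 hairpin's counts in Thy1+, 95.5% and 96.1% in Thy1- and 97.8% in the culture (95.9% to 99.0%). The miR-433 hairpin was as one-sided, with 94.0% to 95.7% on the 3p arm in the fresh libraries and 4 of 4 counts in the culture. The miR-136 hairpin leaned to its 5p arm, with 9.19% and 8.08% on the 3p arm in Thy1+, 7.94% and 8.19% in Thy1- and 2.07% in the culture (0.677% to 4.77%). This lower culture value came with the 15-base tag on the 5p arm, since perfect tags gave 11.6%.

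The miR-434 hairpin had counts of like size on both arms, and its balance differed between libraries. The 3p arm held 52.3% (50.1% to 54.5%) and 65.6% (64.0% to 67.1%) of its counts in Thy1+, 63.2% (61.9% to 64.5%) and 39.2% (38.3% to 40.1%) in Thy1- and 49.7% (41.2% to 58.1%) in the culture. The intervals of the replicates of a fraction did not overlap, while the fractions did. The labels name 2 library protocols without saying which library used which, and the part of the protocol was not tested. The miR-431 hairpin had 7 to 55 counts per fresh library, with the wider range of 24.0% to 61.8% on the 3p arm. The intervals of its Thy1- replicates did not overlap (9.36% to 45.1% and 47.7% to 74.6%), and Thy1- replicate 2 had more miR-431* (34 counts) than miR-431 (21 counts). Arm shares were described and not tested.

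The partner strands miR-127* and miR-136* were also lower in the culture. With so few culture counts, they and miR-431* entered the test through the fresh libraries alone, so their calls add no support. miR-127* stood at 154 and 299 CPM in Thy1+, 223 and 216 CPM in Thy1- and 1.76 CPM in the culture, which is 9 counts (log2 -5.29, SE 0.92, adjusted p = 0.0105 against Thy1+). miR-136* stood at 55.5 and 101.3 CPM in Thy1+, 73.8 and 84.1 CPM in Thy1- and 0.979 CPM in the culture, which is 5 counts (log2 -4.60, SE 0.87, adjusted p = 0.0105). The value of miR-136* stands beside -2.50 for miR-136 with all tags and -5.02 with perfect tags. miR-431* and miR-433* had no culture count, at 2.35 to 6.92 and 1.18 to 3.20 CPM in the fresh libraries. miR-431* passed against Thy1- (adjusted p = 0.0432) and not against Thy1+ (adjusted p = 0.145), and miR-433* had too few counts to be tested.

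**Figure D4:**
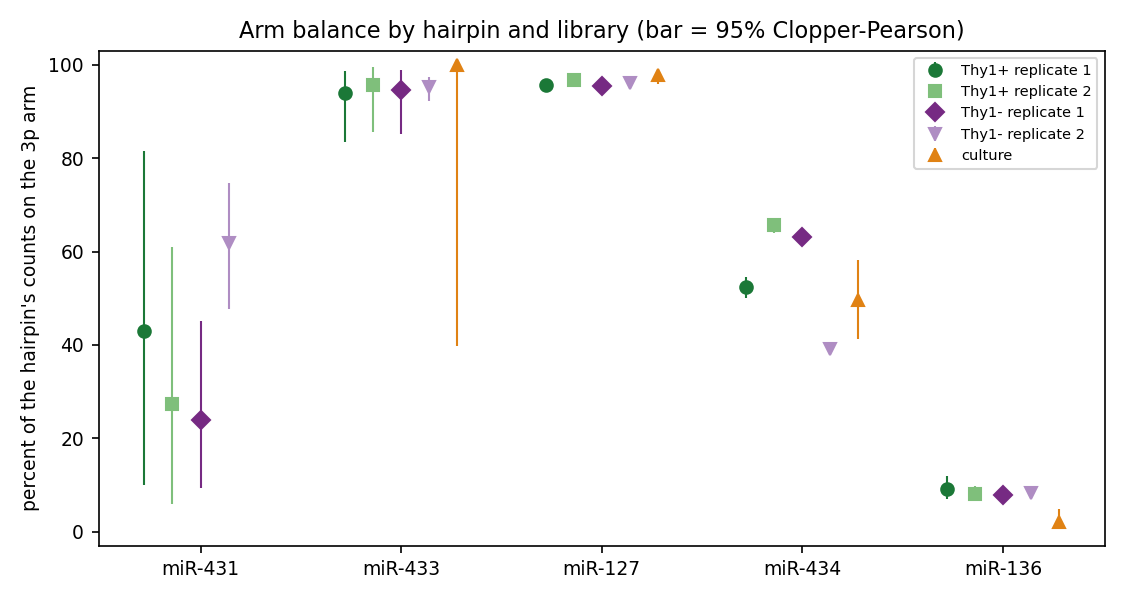
Percent of each hairpin's counts on its 3p arm by library, with 95% Clopper-Pearson bars. miR-433 and miR-127 lie above 93% and miR-136 below 10% in every library, while miR-434 ranges from 39.2% to 65.6% and the few miR-431 counts give wide bars.

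The ends of the reads were next compared with the annotated mature sequences. The files hold no tag that starts before the first or ends after the last annotated base, so shorter forms can be seen and longer ones cannot. Of the summed counts of the 6 miRNAs, 98.5% and 98.4% started at the first annotated base in Thy1+, 98.2% in each Thy1- library, and 73.7% (70.5% to 76.7%) in the culture. With perfect tags the culture share was 98.3% (96.8% to 99.2%). The seeds shown above therefore applied to nearly all perfectly matched reads. The first base was the least fixed in miR-127*, where 76.8% to 85.4% of the fresh counts started there.

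The most frequent 3′ end differed between members. miR-127 mostly stopped 1 base short, at base 21, in 51.1% and 46.9% of counts in Thy1+, 46.4% and 56.2% in Thy1- and 58.7% in the culture. miR-434-5p did so in 64.3% to 69.4% of counts in all 5 libraries, with the full 22 bases in 6.94% to 9.47%. miR-434-3p stopped 1 base short in 52.1% to 61.8%, and its full-length share differed between the Thy1- replicates, at 40.5% (38.8% to 42.2%) and 31.3% (29.9% to 32.7%). miR-136 and miR-433 kept their last base in 63.3% to 71.6% and 62.0% to 76.6% of the fresh counts. In the culture 96.6% of miR-136 counts ended there, the 15-base tag included. The leading tags of the 3 most abundant strands, with equal weight to each library, are shown because all 3 lack the last annotated base.
miR-127, 40.9% of its counts: tcggatccgtctgagcttggc
miR-434-5p, 61.8% of its counts: gctcgactcatggtttgaacc
miR-434-3p, 51.1% of its counts: tttgaaccatcactcgactcc

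The miR-127 tags that stopped 2 bases short, at base 20, were less frequent in the culture, at 12.6% (9.55% to 16.3%) of counts against 17.0% to 24.8% in the fresh libraries. This was picked out after its values had been seen and rests on 51 culture reads of 1 library, without a test.

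**Figure D5:**
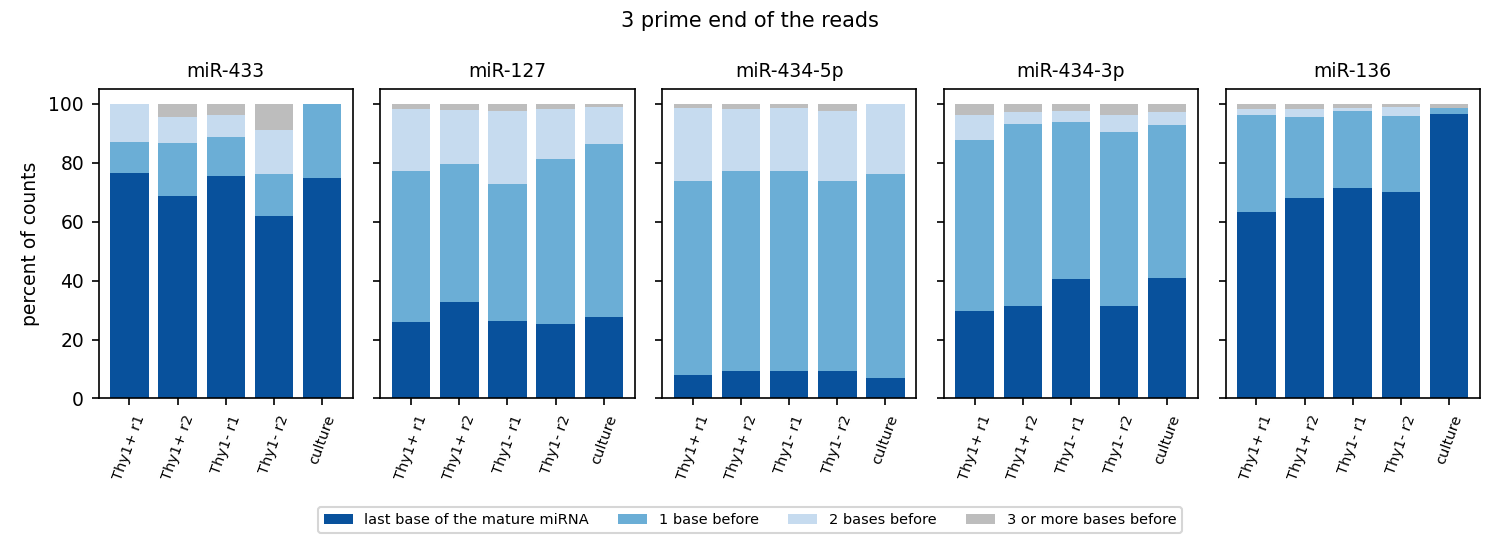
Percent of counts by the position of the last base, relative to the last base of the mature miRNA, for 5 of the 6 miRNAs in each library (miR-431 had at most 21 counts in a library). miR-127, miR-434-5p and miR-434-3p most often end 1 base short in every library, and miR-136 in the culture ends at the last base in 96.6%, the 15-base tag included; miR-433 in the culture is 4 counts.

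miR-127 more often had reads that ended in a mismatched A than miR-434-3p had in the fresh libraries. Tags in which mismatches lay in the last 2 bases and the last base was A made up 6.99% and 6.32% of its counts in Thy1+, 7.30% and 7.80% in Thy1- and 6.68% (4.45% to 9.57%) in the culture. For miR-434-5p this share was 0.289% to 1.39%, for miR-434-3p 0 to 1.10% and for miR-136 0 to 0.195%. The intervals of miR-127 and of these 3 did not overlap in any fresh library. For miR-434-5p and miR-136 the low share was partly set by the annotation. Base 22 of miR-434-5p is A, so an A after its common 21-base form counted as a match. Most miR-136 reads end at base 22, and a base added after it cannot be seen. The share of miR-434-3p can be set against that of miR-127 with a limit, since a base added after its full 22 bases cannot be seen either. Perfect tags that ended at base 20, where the leading miR-127 form adds its A, also differed. They held 3.36% to 7.97% of fresh miR-434-3p counts and 15.8% to 22.5% of fresh miR-127 counts. The part of these end positions was not tested. miR-433, with 45 to 297 fresh counts, ranged from 0 to 14.9%. The 3 leading forms of miR-127 are shown with the mismatched base in capitals.
A in place of base 21: tcggatccgtctgagcttggA
T in place of base 21: tcggatccgtctgagcttggT
A in place of base 22: tcggatccgtctgagcttggcA
The first form held 4.47% and 3.96% of miR-127 counts in Thy1+, 4.95% and 4.69% in Thy1- and 3.22% (1.72% to 5.44%) in the culture. The form with T held 2.78% to 3.92% in the fresh libraries and 1.24% (0.403% to 2.86%), which is 5 reads, in the culture. The last form held 1.56% to 2.59% in the fresh libraries and 3.22% in the culture. Sequencing errors at the end of a read and added bases cannot be told apart from these counts.

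Other hairpins of the region were compared by lists. On the Meg3 side of Rtl1, 6 of the 10 listed products of miR-770, miR-673, miR-493, miR-337, miR-540 and miR-665 had enough counts for the culture comparisons. Of these 6, 2 were called lower against Thy1+ and 5 against Thy1- with edgeR, beside 13.4% and 16.8% of all miRNAs tested. All 6 stood at 0.979 CPM or less in the culture. They entered the test through the fresh libraries alone, so a rise could not have been called. Since 3 of the 6 had no culture count, the median log2 fold change of -4.75 against Thy1+ became -2.70 with these at their bound. Without either Thy1+ library 0 passed in both comparisons (3 to 6 at an unadjusted p under 0.05), and 0 of 5 passed with the Thy1- and culture libraries alone (5 unadjusted). Against Thy1-, 3 passed without Thy1- replicate 1 and 2 without replicate 2. The 2 most abundant were miR-540-3p, at 23.5 and 25.3 CPM in Thy1+, 12.9 and 28.9 in Thy1- and 0.979 in the culture, and miR-673-5p, at 24.5 and 33.8, 12.9 and 22.2, and 0.979 CPM. On the other side of Rtl1, the 48 products from miR-341 to miR-410 included 42 that were tested. With edgeR, 30 of them fell against Thy1+ and 33 against Thy1-, and 0 rose, beside 13.4% and 16.8% of all miRNAs called lower. Most of the 42, such as miR-376a (3 culture counts) and miR-494 (6 culture counts), likewise entered through the fresh libraries alone. Only a fall was open to them, so the counts of falls say little about direction. Without Thy1+ replicate 1 these counts were 0 and 27, and without replicate 2 they were 0 and 13, while 32 to 36 had an unadjusted p under 0.05. Without Thy1- replicate 1, 20 passed against Thy1+. With the Thy1- and culture libraries alone 0 of 41 passed (36 unadjusted). The median log2 fold change of these 42 against Thy1+ was -3.80, beside -4.63 for the Rtl1 antisense members. With names lacking culture counts at their bound, 7 of the 42 and miR-431, the medians were -3.43 and -4.41. In fits of all 4 fresh libraries, 0 of 4 and 0 of 36 tested products of the lists passed between the fractions with edgeR, DESeq2 or limma-voom. Of these products, 0 had an unadjusted p under 0.05 in those fits, while 28.2% of all miRNAs passed with edgeR.

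The miRNAs whose profile over the 5 libraries was most like that of the 6 members were all from this region. By Euclidean distance between centred log2(CPM + 1) profiles, among 380 other names with at least 10 CPM on average, the closest 5 were miR-376a* (0.514), miR-410 (0.544), miR-411 (0.552), miR-379 (0.572) and miR-541 (0.674). The distances of the members to their own mean were 0.899 for miR-136, 0.975 for miR-127, 1.14 for miR-434-5p, 1.19 for miR-433, 1.52 for miR-434-3p and 2.12 for the scarce miR-431. The 5 points share their totals, and the culture is the point that sets most of the profile.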

How the data were processed

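Small RNA was sequenced from 2 Thy1+, 2 Thy1- and 1 culture library, grouped by sample titles. The deposited counts are raw reads per distinct tag, without normalization; per the file headers each tag has its mature miRNA, first and last position and up to 2 mismatches, and per the file names the annotation was miRBase 12. For the aligner and adapter removal, nothing is stated in the sources used here. Each tag's count was assigned to its name, split equally between tied names, summed and rounded. Totals ran from 937002 to 5110007 counts, which cover miRNA reads alone; intervals cover counting error only. In edgeR 4.0.16 (R 4.3.3; TMM, filterByExpr, quasi-likelihood, two-sided, Benjamini-Hochberg over all names tested, threshold 0.05), the fresh fractions were compared in their 4 libraries. The culture was compared in a fit of all 5, which assumes that its single library varies like the fresh ones. A check on simulated data gave the culture library the same spread as the fresh ones, so it could not test that assumption. DESeq2 1.42.0 and limma 3.58.1 (voom) were alternatives, with other scaling, filters, tags and left-out libraries. Named were the 6 members, their partner strands, 2 lists of neighbouring hairpins with the 2 most abundant products of the first, the 5 closest profiles and the 3 leading tags per member. The members and lists were chosen with earlier results of these data known. Sequences are from RefSeq (GRCm38.p6), annotation from GENCODE M21.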

Additional observations from a re-analysis of the deposited data

How the results depend on the processing

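Between the fresh fractions no member passed in any setting (adjusted p from 0.302 to 0.999), but directions were not fixed. Total scaling gave 0.14 for miR-431, 0.26 for miR-433, 0.27 for miR-127 and 0.15 for miR-434-5p. Leaving out 1 library at a time gave -0.95 to 0.06 for miR-127, -0.84 to 0.82 for miR-433, -0.73 to 0.16 for miR-434-5p and -0.31 to 0.51 for miR-434-3p. Replicate numbers pair nothing by the labels, and same-numbered libraries did not deviate together (r = -0.062 across 425 miRNAs, which are not independent); with the replicate block 32 miRNAs passed in place of 120, with 0 members in both. Of the members' alternative values, all 77 against Thy1+ and all 78 against Thy1- were below 0, and 17 and 11 of them no longer passed. Besides the left-out libraries, these were miR-431 and miR-136 under RLE scaling, miR-431 with DESeq2 (all against Thy1+) and all 6 with the Thy1- and culture libraries alone, where 0 miRNAs passed with edgeR, in place of 164 (173 at an unadjusted p under 0.05). Leaving out 1 library gave 0 to 138 calls between the fresh fractions, 0 to 128 calls with 0 to 6 members for culture against Thy1+, and 46 to 135 calls with 3 to 6 members against Thy1-. Total scaling gave 173 calls against Thy1+ in place of 105. The cause was not tested. The summed share rose to 1.67%, 1.995% and 0.0496% (Thy1+, Thy1-, culture) without the 10 most abundant names in the total; perfect tags gave 0.749% in Thy1- and 0.0109% in the culture, and tags of at least 18 bases 0.0116% in the culture. Counts at the first annotated base were 99.2%, 99.1% and 98.3% (Thy1+, Thy1-, culture) with perfect tags. They were 99.3%, 99.2% and 98.8% with tags of at least 18 bases. With tags of at least 2 counts they were 98.7%, 98.3% and 73.7%, so this setting left the culture value as it was with all tags. The culture share at the last base was 47.9% with all tags and 48.9% with tags of at least 2 counts. It was 30.1% with perfect tags and 30.8% with tags of at least 18 bases. Depth limits miR-431, miR-433 and their partner strands most.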
